A study of Homo sapiens with 16 samples.

Results

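The regions described here are the protein-coding promoters that hold a κB consensus, the DNA word bound by NFκB. They were chosen from the genome sequence alone: a promoter ran from 1000 bp upstream to 100 bp downstream of the transcription start site (TSS) of a protein-coding transcript, overlapping promoters were merged, and a promoter was a member if it held, on either strand, a 10-base match to the consensus (G at the first pair of bases, a pair of purines, any base, A or T, a pair of pyrimidines, and C at the last pair). By this rule 9993 of 33358 promoters (30.0%) held at least 1 of 13105 matches, of 455651 matches on chromosomes 1 to 22 and X. The question was how many of these promoters p65 occupied, what their sequences had in common, and whether the occupied set differed between cell lines and with ERβ.

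The measurement was p65 (RELA) ChIP-seq in HT29 and SW480, human colorectal adenocarcinoma lines, each in a version stably transfected with estrogen receptor beta (ERβ) and a version carrying the empty vector (mock). Each of the 4 conditions had 3 p65 libraries and 1 input library, 16 in all, and every cell, mock included, had received TNFα at 30 ng/ml for 30 min, so no untreated state was measured here. The labels give no more on the transfected populations than that the transfection was stable, and per the study the ERβ inputs came from a separate series. All 4 inputs also carry the p65 antibody in their labels and were taken as inputs from their titles, and each occupancy call below rests on them. Libraries of a condition are called replicates as labelled, and p-values measure the spread between these libraries, which may be partly technical.

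NFκB is a family of dimers built from p65, c-Rel, RelB, p50 and p52, held in the cytoplasm by inhibitors of the IκB family. TNFα signalling degrades the inhibitors, the dimers enter the nucleus and bind κB sites, and among the best known targets are the genes of the inhibitors themselves, of A20 (TNFAIP3) and of survival proteins and chemokines. The κB word is short, so a genome holds far more copies than p65 binds, and which copies are used in which cell is a property of the sequence and of the chromatin around it.

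Some sites carry most of what follows, and are shown with the κB match in capitals and the flanking bases in lower case, on the forward strand of hg38 (GRCh38). The first 6 lie in promoters among the 8 with the highest p65 signal, and the next 4 are an 11-base site shared by neighbouring CXC chemokine genes, of which 1 was not occupied.
TNFAIP3, chr6:137867204-137867213, upstream of the TSS: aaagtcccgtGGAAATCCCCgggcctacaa
NFKB2, chr10:102394500-102394509, in a UTR: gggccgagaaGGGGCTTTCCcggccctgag
BIRC3, chr11:102317349-102317358, upstream of the TSS: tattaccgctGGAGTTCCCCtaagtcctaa
NFKBIA, chr14:35403963-35403972, in a UTR: caggcgcccaGGGACTTTCCgcccccctcc
SDC4, chr20:45348512-45348521, upstream of the TSS: caccccgcccGGAATTCCCCagtggaagcg
TNIP1, chr5:151081067-151081076, in a UTR: cccacccctgGGAAAGTCCCcggagactgg
CXCL1, chr4:73869314-73869324, upstream of the TSS: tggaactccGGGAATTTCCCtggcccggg
CXCL2, chr4:74099263-74099273, upstream of the TSS: cccgggccaGGGAAATTCCCggagctcca
CXCL3, chr4:74038758-74038768, upstream of the TSS: gccgggccaGGGAAATTCCCggagctcca
CXCL5, chr4:73998758-73998768, upstream of the TSS: gggatgctgGGGAAATTCCCtgaactcat

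A level below is the mean tag density over 200 bp centred on a match, in tags of a library scaled by the authors to 10000000. A match was called occupied in a library where this level was at least 2, 4 or more times the input, and 4 or more times the average over the 10000 bp around it, and in a condition where at least 2 of 3 libraries met this. Sites less than 200 bp apart share signal, so a call belongs to a promoter rather than to 1 word. The depth behind each value cannot be read from the scaled tracks, and the intervals given for shares cover counting error over promoters only. A lower level in every cell and binding in fewer cells cannot be told apart in bulk ChIP.

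The ChIP tracks carried the ERβ transgene as labelled, judged by the coding exons of ESR2, the gene of ERβ. These read 2.59 to 8.10 times the rest of the gene in the 6 ERβ ChIP libraries and 1.09 to 1.6 times in the 6 mock libraries. In the inputs the ratio was 1.253 for HT29 mock, 2.305 for HT29 ERβ, 1.555 for SW480 mock and 1.903 for SW480 ERβ. Each ERβ input thus lay above the mock input of its line but below each ERβ ChIP library of that line. Replicate 1 stood apart in HT29, with 867 occupied promoters in mock against 399 and 435 in the others, and 657 in ERβ against 282 and 249. In SW480 ERβ, replicate 1 was the low library, with 557 against 1013 and 914, while the SW480 mock libraries gave 183, 251 and 254. None of 9993 promoters was called when an input was read in place of a ChIP library against the other input of its line, which allows a share of up to 0.0300% by the rule of 3 counts over the total (exact 95% upper limit 0.0369%). This result was nearly fixed by the minimum of 2. At their highest match, 6 promoters reached it in the HT29 mock input, 7 in HT29 ERβ, 27 in SW480 mock and 0 in SW480 ERβ. It gives no rate of false calls for the ChIP libraries. At 432 promoters all 4 inputs read 0, and 86 of these lie on chromosome 6, so that a missing call there says nothing about binding; none was occupied.

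p65 occupied a small minority of the promoters with a κB word. At least 1 match was occupied in some condition in 914 of 9993 promoters (9.15%, exact Clopper-Pearson 95% interval 8.59 to 9.73%), beside 1.15% of all κB matches of the genome. By condition, 481 promoters were occupied in HT29 mock (4.81%; all matches 0.523%), 320 in HT29 ERβ (3.20%; 0.355%), 216 in SW480 mock (2.16%; 0.221%) and 843 in SW480 ERβ (8.44%; 0.986%). The inputs ran opposite to these counts within each line: the median level over the κB promoters was 0.338 in the HT29 mock input and 0.420 in that of HT29 ERβ, and 0.5 in the SW480 mock input and 0.393 in that of SW480 ERβ. With every library read against the mean of its line's inputs, a choice made after seeing the data, the counts were 469, 357, 284 and 734 in the same order of conditions, so the gap between mock and ERβ narrowed in both lines and kept its direction. Counted by match, 1080 of 13105 promoter matches (8.24%) and 4181 of 442546 matches elsewhere (0.945%) were occupied.

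Promoters with a match were bound more often than those without. When a window of the same size was slid across every promoter under the same limits, 1173 of 9993 promoters with a match were occupied somewhere (11.7%, interval 11.1 to 12.4%), against 398 of 23365 promoters without one (1.70%, interval 1.54 to 1.88%). Promoters with a match were slightly longer, with a median of 1129 against 1101 bp. In promoters with exactly 1 match that overlapped no other, 7208 in number, the mean signal peaked at the word in each of the 12 ChIP libraries, at 1.40 to 2.33 times the level 1500 bp or more away, while the same ratio was 1.08 to 1.28 in the 4 inputs.

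**Figure D1:**
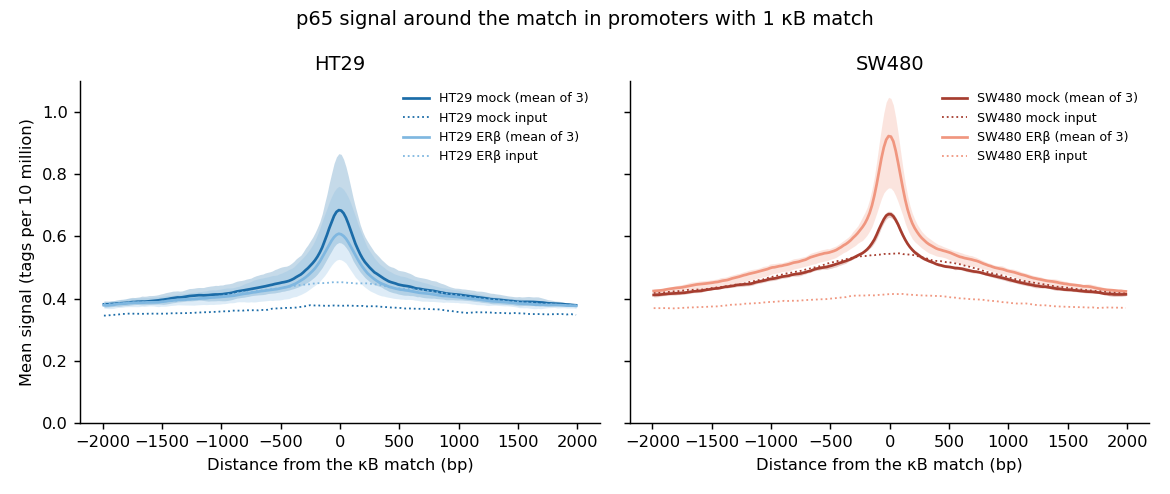
Mean signal (tags per 10000000, vertical axis) by distance from the κB match (bp, horizontal axis) over 7208 promoters with 1 match, for HT29 (left) and SW480 (right). Solid lines are means of 3 libraries, bands run from the lowest to the highest library and dotted lines are inputs; the ChIP signal rises to a peak at the word in each condition and the inputs show only a broad rise.

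**Figure D2:**
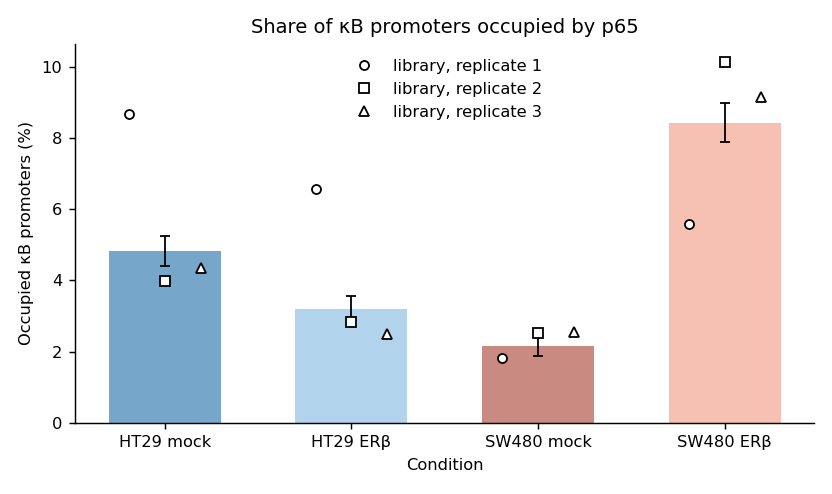
Share of the 9993 κB promoters occupied (percent, vertical axis) in each condition. Bars give the condition, called in at least 2 of 3 libraries, error bars the exact 95% interval for counting error, and open symbols the single libraries by replicate number; SW480 ERβ is highest at 8.44% and SW480 mock lowest at 2.16%, and HT29 replicate 1 lies above its fellows in both conditions.

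The occupied sets were largely nested. They are cut at fixed limits over differing inputs, so a missing call is not a tested difference. By the test given below, 0 of 1747 promoters differed between HT29 ERβ and mock. In SW480 356 were higher with ERβ (20.4%, beside 27.7% of all tested windows). All 216 promoters of SW480 mock were also occupied in SW480 ERβ, where they made up 25.6% of the 843. Of the 320 promoters of HT29 ERβ, 291 (90.9%) were also occupied in HT29 mock, 60.5% of its 481. Across lines, 417 of the 481 HT29 mock promoters (86.7%) were occupied in SW480 ERβ and 189 (39.3%) in SW480 mock. A core of 160 promoters was occupied in all 4 conditions, 378 in SW480 ERβ alone, 125 in HT29 mock and SW480 ERβ, 36 in HT29 mock alone and 7 in HT29 ERβ alone. In the core the median level ran from 4.09 to 10.3 over the 6 HT29 libraries and from 5.30 to 13.2 over the 6 SW480 libraries, and from 0.468 to 0.707 in the inputs.

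Which of the κB words a promoter held went with a wide difference in occupancy. Among the 7208 promoters with a single, non-overlapping match, 440 were occupied (6.10%), but the shares of the 95 words carried by at least 20 of them ran from 0 to 40.5%. At the top were GGGGATTCCC in 15 of 37 promoters (40.5%, interval 24.8 to 57.9%), GGGGATTTCC in 16 of 46 (34.8%), GGGGAATTCC in 16 of 51 (31.4%) and GGGACTTTCC in 33 of 107 (30.8%, interval 22.3 to 40.5%), the last being the word first described in an immunoglobulin enhancer. The most frequent word, GGGGCTCCCC, was occupied in 2 of 245 promoters (0.816%, interval 0.0990 to 2.92%), GGGGCTCTCC in 0 of 143 and GGAATTTTCC in 0 of 106. In all, 30 of the 95 words were occupied in no promoter. Outside promoters GGAATTTTCC was occupied at 22 of 11045 matches (0.199%).

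Single bases inside the consensus separated these words. Of sites that match on 1 strand only, those with G at the third base were occupied in 187 of 2813 promoters (6.65%) and those with A there in 34 of 2561 (1.33%). T at the sixth base gave 178 of 2949 (6.04%) and A 43 of 2425 (1.77%), and T at the seventh base gave 180 of 2379 (7.57%) and C 41 of 2995 (1.37%). The fifth base gave 151 of 2735 (5.52%) for C and 70 of 2639 (2.65%) for G. The fourth and eighth bases separated less, with 5.21% for A against 3.34% for G and 4.97% for T against 3.40% for C. Sites that read as κB on both strands were occupied in 219 of 1834 promoters (11.9%), against 221 of 5374 (4.11%) for sites on 1 strand. By the consensus these are the sites with A or T at both the fifth and sixth bases. The comparison is thus A or T against C or G at the fifth base, not a separate property of the strands.

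A word class was then formed after these shares had been seen, so its difference is a description: words with G at the third base and T at the sixth and seventh on either strand. It held 1234 promoters, of which 255 were occupied (20.7%, interval 18.4 to 23%), and the other words 5974, of which 185 were (3.10%, interval 2.67 to 3.57%). Of the 12 words with at least 20 promoters and a share over 20%, 8 belong to the class. GGGGAATTCC, at 31.4%, is among those outside it. The class made up 17.1% of the single matches in promoters and 17.3% of those elsewhere, nearly the same share. Outside promoters, in sites that were not used to form it, 1883 of 72157 matches of the class (2.61%) and 1407 of 345478 other matches (0.407%) were occupied, the same order at a far lower level. Within the class, sites on both strands were occupied in 119 of 525 promoters (22.7%) and sites on 1 strand in 136 of 709 (19.2%), with overlapping intervals, while among the other words the shares were 100 of 1309 (7.64%) and 85 of 4665 (1.82%).

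Promoters whose only site was made of overlapping matches were occupied in 99 of 434 cases (22.8%), and their words differed as widely. An 11-base site made of overlapping matches, GGGAATTTCCC or its reverse complement, was the site in 36 of these promoters, and 22 of them were occupied (61.1%, interval 43.5 to 76.9%), including NFKBIB, CXCL1, CXCL2 and CXCL3. The related GGGAGTTTCCC was occupied in 10 of 27, while GGGGGTCTCCC was occupied in 0 of 43 and GGGAGTCTCCC in 1 of 37. Promoters with more separate matches were occupied more often, 539 of 7642 (7.05%) with 1, 264 of 1793 (14.7%) with 2, 85 of 422 (20.1%) with 3 and 26 of 136 (19.1%) with 4 or more. A promoter counted as occupied where any of its matches was, so each further match gave another chance of a call. Whether matches in 1 promoter act together was not tested.

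Position and base composition went with occupancy as well. In promoters with a single match, 99 of 947 (10.5%) were occupied where the match lay within 100 bp upstream of the TSS and 21 of 1030 (2.04%) where it lay between -1000 and -750 bp. Over all words, each of the 4 conditions had its highest share in that nearest upstream bin. The word class did not peak there. Its share in any condition was 46 of 141 (32.6%) at -200 to -100 bp and 48 of 197 (24.4%) at -100 to 0 bp. At 0 to 100 bp it was 41 of 139 (29.5%), and the intervals overlapped. Median GC content was 51.5% in the farthest bin and 62% in the nearest upstream bin, so position and GC content were not separated. The share rose with the GC content of the 200 bp, from 5 of 502 (0.996%) below 40% GC to 133 of 1004 (13.2%) at 70% or more. Within GC bins the word class still stood above the other words, at 105 of 292 (36%) against 66 of 1615 (4.09%) for 60 to 70% GC and 21 of 315 (6.67%) against 12 of 1165 (1.03%) for 40 to 50% GC. A match to AP-1, the sequence TGACTCA or TGAGTCA, was in 2.52% of the promoter windows and 3.08% of all κB windows of the genome; single-match promoters with it were occupied in 21 of 181 cases (11.6%, interval 7.33 to 17.2%) and those without it in 419 of 7027 (5.96%).

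**Figure D3:**
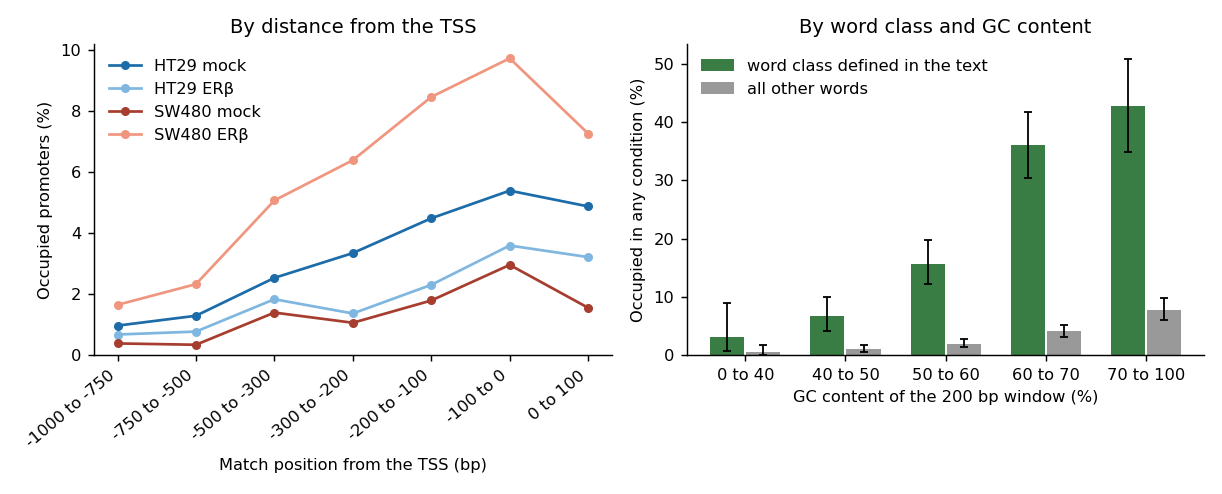
Left, share of single-match promoters occupied (percent) by distance of the match from the nearest TSS (bp) in the 4 conditions; right, share occupied in any condition (percent) by GC content of the 200 bp window, for the word class defined in the text and for all other words, with exact 95% intervals. Over all words the shares peak within 100 bp upstream of the TSS, while those of the word class, not drawn by distance, do not. At 60 to 70% GC the class reached 36% against 4.09%.

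Several of NFκB's own regulators had the strongest promoters. The 20 of highest mean signal over the 12 libraries include TNFAIP3, NFKB2, BIRC3, NFKBIA, NFKBIB, TNIP1 and NFKBIZ. All 20 were occupied in all 4 conditions, which was nearly fixed by ranking them on the signal that the calls use. TNFAIP3, the gene of the ubiquitin-editing inhibitor A20, read 24.4, 12.3 and 16 in HT29 mock, 20.7, 12.4 and 10.1 in HT29 ERβ, 29.4, 29.5 and 23.5 in SW480 mock, and 18.9, 35.1 and 28.1 in SW480 ERβ. Its SW480 values lay mostly above those of HT29, with overlap through HT29 replicate 1 and SW480 ERβ replicate 1. NFKBIA, the gene of IκBα, read 19.9, 10.2 and 11.6 in HT29 mock, 23.7, 10.1 and 8.69 in HT29 ERβ, 25.8, 22.6 and 14.4 in SW480 mock, and 21.2, 36.6 and 26.1 in SW480 ERβ. Its highest match lies in the first part of the transcript, 173 bp from the nearest annotated TSS.

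NFKB2, which encodes the p52 precursor, had the highest mean of the 20 in HT29 mock, at 31.1, 16.5 and 19.1, with 12.5, 15.8 and 14.8 in SW480 mock. BIRC3, the gene of the apoptosis inhibitor cIAP2, read 22.3, 12 and 14.5 in HT29 mock and 21.3, 21.3 and 16.8 in SW480 mock, an overlapping pair of groups. Promoters with less familiar links to the pathway were as strong: ATG16L2, an ATG16L1 relative, had a mean of 17.2 ± 6.16 in HT29 mock and 17 ± 3.31 in SW480 mock (SD, n = 3), and the promoter between MITD1 and MRPL30 16.4 ± 5.20 and 13.6 ± 2.56. Others of the 20 were SDC4 (a cell-surface proteoglycan), KCTD11, HMGXB4, CYREN, CREB1 (the cAMP-response factor), IKZF3, NINJ1, ZNRD2 and C16orf46.

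**Figure D4:**
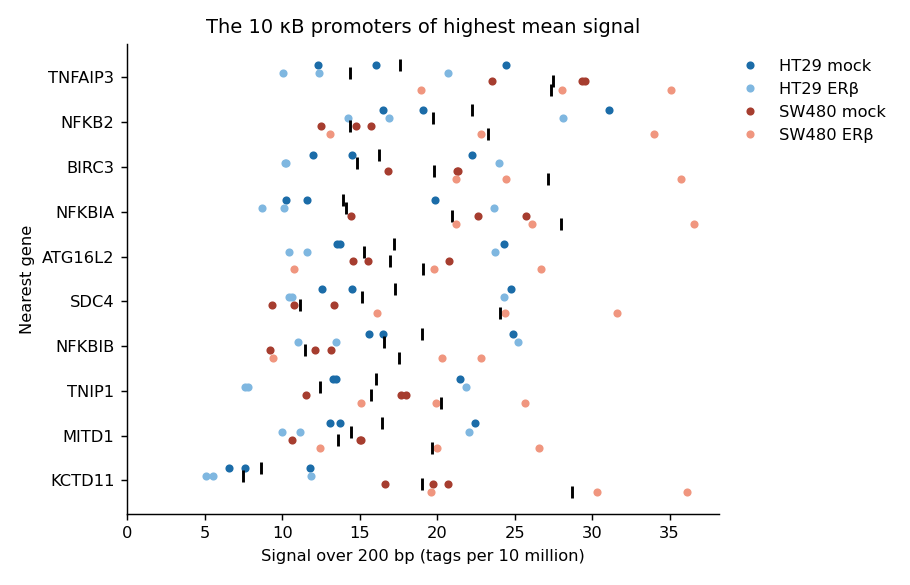
Signal over 200 bp (tags per 10000000, horizontal axis) at the 10 κB promoters of highest mean signal. Points are the 12 libraries, coloured by condition, and black ticks the mean of each condition; the 3 libraries of a condition spread widely, as in TNFAIP3 of HT29 mock at 24.4, 12.3 and 16.

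By role in the pathway, the counts below stand beside 9.15% over all κB promoters. All 4 NFκB subunit genes with a κB promoter (NFKB1, NFKB2, REL, RELB) were occupied in every condition; RELA has no match in its promoters, though one of them was occupied by the sliding window. All 6 IκB-type inhibitor genes were occupied, 5 of them in every condition, and NFKBID, a nuclear inhibitor, in 2. Of 6 feedback genes acting through ubiquitin or RNA decay, TNFAIP3, TNIP1 and CYLD were occupied in every condition, and TNIP2, TNIP3 and ZC3H12A in none, with means of at most 0.679 in any condition. These lists were drawn up with earlier results known, so the counts carry no support of their own; over all κB promoters 914 of 9993 were occupied and the median mean signal was 0.485, against 10.1 for the subunits and 11.7 for the inhibitors.

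Survival genes were mixed, with 4 of 6 occupied and a median of 2.63. BIRC3 and TRAF3, a signalling adaptor, were occupied in every condition. CFLAR (c-FLIP) and GADD45B were occupied in 1 condition each, and BCL2L1 (BCL-XL) and TRAF2 in none. Another promoter of CFLAR was also occupied by the sliding window. BCL2L1 had levels near the limit, with means of 2.77, 3.08, 2.03 and 2.35 in HT29 mock, HT29 ERβ, SW480 mock and SW480 ERβ.

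The CXC chemokines that attract neutrophils held a natural comparison. CXCL1, CXCL2, CXCL3 and CXCL5 lie in 1 cluster on chromosome 4 and share the 11-base site 73 to 86 bp upstream of their start. CXCL1 read 13.9, 8.26 and 8.27 in HT29 mock and 3.52, 4.92 and 6.53 in SW480 mock, and its neighbours CXCL2 and CXCL3 had means of 10.2 and 9.86 in HT29 mock and 4.79 and 5.13 in SW480 mock. CXCL5, with the same 11 bases, read 1.04, 0.680 and 0.740 in HT29 mock and 0.919, 1.18 and 1.03 in SW480 ERβ, and was occupied in no condition. CXCL6, which also holds this site, was occupied in SW480 ERβ alone, at 2.12, 3.70 and 3.99. CXCL8, the gene of interleukin-8, was occupied in every condition, with a mean of 9.28 in HT29 mock. Its match is another word, GGAGCACTCC, which was occupied in 2 of 45 promoters with it as their single match (4.44%). The 200 bp read there may hold sites outside the consensus, which were not searched, so its signal cannot be assigned to this word. The promoters of this family resemble each other in sequence, and the tracks count uniquely mapped reads.

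Among other chemokines, CCL20 was occupied in every condition and CXCL10, an interferon-type chemokine, in 2, while CXCL11, CXCL16, CX3CL1, CCL2, CCL7 and CCL22 were occupied in none, at means of at most 0.953. CCL5 read 0 in every input and cannot be judged. Of 16 cytokine and growth factor genes with a κB promoter, 5 were occupied: IL32 in every condition, IL23A and IL15 in 2, and EBI3 and CSF1 in 1. IL6, IL1B, CSF2, CSF3, LIF, IL36G, VEGFA and BMP2 were occupied in none, and BMP2 reached its highest mean, 2.44, in HT29 mock. TNF, LTA and LTB, which lie together in the major histocompatibility complex on chromosome 6, read 0 in every input.

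The same blank held for antigen presentation: of the genes with a κB promoter, HLA-B, HLA-F, B2M, TAP1, TAPBP, PSMB8 and PSMB9 read 0 in all inputs, and HLA-C had condition means of at most 0.10. Of adhesion and surface receptor genes, CD83 and IFNGR2 were occupied in every condition and TNFRSF9 (4-1BB) in 2, and ICAM1, ICAM4, CD40, CD44, FAS, TLR2 and MADCAM1 in none. ICAM1 had a highest condition mean of 2.15, in HT29 mock. Of transcription factors of the TNF response, CREB1 and IRF1 were occupied in every condition, KLF10 and IRF2 in 3 and ETS2 in 1. JUN, JUNB, FOSL1, KLF6, NFIB and RUNX1 were occupied in none at a κB promoter, while IRF7 read 0 in all ChIP libraries. Another promoter of RUNX1 was occupied by the sliding window. Of 7 clock genes, PER1 was occupied in every condition, CLOCK in 2, and PER2 and BHLHE40 in 1 each, with BMAL1, BMAL2 and NR1D1 in none. BMAL2 had means of 2.37, 2.03, 2.51 and 4.64 in HT29 mock, HT29 ERβ, SW480 mock and SW480 ERβ.

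Of κB targets known from immune and endothelial cells, 2 of 10 with a κB promoter were occupied, beside 9.15% of all κB promoters, and their median of 0.503 lay near the 0.485 over all. IL2RA, CD86, SELE, VCAM1, NOS2, IFNB1, PTX3 and BLNK were occupied in none, and CD69 and IL12B in SW480 ERβ alone. CD69, a lymphocyte activation marker, read 0.370, 0.643 and 0.811 in SW480 mock and 2.01, 4.04 and 3.51 in SW480 ERβ. Over all lists 43 genes were occupied at a κB promoter, 25 of them in every condition, and 4 genes without a match in any promoter, RELA, OTUD7B, BIRC2 and EGR1, were occupied by the sliding window.

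A further 5 promoters had the highest mean signal of those occupied in no condition: HIVEP2, HES1, NBPF1, RAB20 and the promoter shared by TMEM258 and FEN1. HIVEP2, a zinc-finger factor known to bind κB-like words, read 6.27, 4.42 and 3.36 in HT29 mock, and HES1, a Notch target, 6.96, 2.56 and 3.86. Both passed the minimum of 2 in all 3 HT29 mock libraries, but not the limits over input and surroundings in 2 of 3.

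Differences between conditions were tested with limma on log2 of the level plus 1, over the 10343 κB windows of the genome with a mean of at least 1. Each promoter was read at its highest match, and 1747 of 9993 promoters (17.5%) were tested. Between the mock lines, 100 promoters were higher in SW480 (5.72%; all tested windows 9.34%) and 259 were lower (14.8%; 24.1%), with a median difference of -0.17 (all windows -0.23). The split depended on scaling: with each library centred on its own median 343 promoters were higher and 256 lower (all tested windows 22.8% and 22.2%), and with the input subtracted 29 and 386 (all tested windows 3.43% and 26.3%). Without HT29 mock replicate 1 the counts were 107 and 110 of 1683 (all tested windows 994 and 1306 of 9857). Without SW480 mock replicate 1 they were 70 and 148 of 1760, 218 in all (all tested windows 695 and 1935 of 10692). Centring with the replicate block, chosen after seeing the data, gave 353 and 267 (all tested windows 23.3% and 22.7%), and without the filter on low levels 233 and 94 of 9993 passed (all windows 1.3% and 1.04%). A change below is given as uncentred log2 with its standard error.

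The 5 largest losses in SW480 were TANK, LCN2, EHF, STAP2 and CEACAM19. TANK, a TRAF-binding adaptor, read 11.1, 5.87 and 7.31 in HT29 mock and 0.378, 0.210 and 0.425 in SW480 mock, a difference of -2.73 ± 0.34 (adjusted p 1.28e-07). LCN2, which encodes the siderophore-binding protein lipocalin 2, read 14.0, 7.05 and 7.50 against 0.470, 0.800 and 0.430 (-2.69 ± 0.37, adjusted p 5.04e-07). EHF, an epithelial ETS factor, read 19.4, 9.98 and 10.6 against 1.55, 1.00 and 1.21 (-2.61 ± 0.38, adjusted p 1.19e-06). In each of these the groups were far apart, and the difference was -2.59 for STAP2, a signalling adaptor, and -2.50 for CEACAM19. TANK has its match in a UTR: atttctcagtGGAAGTTCCCacttcaacat at chr2:161136917-161136926.

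The largest gains in SW480 were ADAMTSL2, GPR146, IQSEC1, KCNH2 and HLA-DQB1. ADAMTSL2, a secreted matrix protein gene, read 0.566, 0.552 and 1.00 in HT29 mock and 6.78, 6.61 and 9.11 in SW480 mock (2.31 ± 0.35, adjusted p 1.98e-06). GPR146, an orphan receptor gene, read 3.89, 1.02 and 0.982 against 8.54, 10.4 and 12.9 (2.09 ± 0.39, adjusted p 4.93e-05). HLA-DQB1 read 0 in the HT29 mock libraries and also in both HT29 inputs, so its difference is no measure of binding. IL23A, a cytokine subunit gene, also rose, from 2.19, 1.56 and 0.980 to 7.28, 6.59 and 7.38 (1.68 ± 0.37, adjusted p 0.000478). Of the IκB-type inhibitors, NFKBIZ (-1.11 ± 0.39), BCL3 (-1.09 ± 0.38) and NFKBID (-0.90 ± 0.35) were lower in SW480 mock, and all 3 calls were lost without HT29 mock replicate 1 (-0.76, -0.75 and -0.57) and without SW480 mock replicate 1 (-0.91, -1.06 and -0.75), those of BCL3 (-1.06 and -1.16) and NFKBID also without either other SW480 mock library. The call of NFKBID was further lost without HT29 mock replicate 3 (-0.99), with a pseudocount of 2 (-0.69, limma adjusted p 0.0612) and with the replicate block (limma adjusted p 0.0588). Without the filter on low levels all 3 calls were lost (adjusted p 0.340, 0.264 and 0.237).

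In HT29, no promoter passed the threshold between ERβ and mock (0 higher and 0 lower of 1747 by limma; all tested windows 0% and 0%). At an unadjusted p below 0.05 there were 1 higher and 18 lower. The direction was mostly down: 1379 of 1747 promoters had a negative difference, with a median of -0.16 (all windows -0.15), and 631 were lower in all 3 same-numbered pairs (36.1%; all tested windows 32.6%) against 56 higher in all 3 (all tested windows 4.44%). The ranges of the 3 libraries did not overlap in 50 promoters that were lower (all tested windows 4.31%) and 9 that were higher (0.764%). The shift moved with single libraries: the median over all windows was 0.0153 without HT29 mock replicate 1, -0.0714 and -0.0695 without HT29 ERβ replicates 2 and 3, -0.2386 and -0.2118 without HT29 mock replicates 2 and 3, and -0.2821 without HT29 ERβ replicate 1. It was -0.1227 with the replicate 1 pair left out, a choice made after seeing the data. With the replicate number as a block no promoter was called either (all tested windows 0% higher and 0.029% lower). Without the filter on low levels 1 of 9993 was higher and 0 were lower (all windows 0.00154% and 0.00285%). TNFAIP3 differed by -0.28 ± 0.34 and NFKBIA by -0.05 ± 0.36.

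In SW480, p65 signal at these promoters was higher in the ERβ than in the mock libraries before centring, as it was over all tested κB windows. Of 1747 promoters, 356 were higher (20.4%; all tested windows 27.7%) and 0 were lower (all tested windows 0.029%), with a median difference of 0.51, the same as over all windows. The filter took the mean over all 12 libraries, so a promoter low elsewhere could enter through SW480 ERβ, the group tested. Such a promoter could hardly be called lower. The ranges of the 3 libraries did not overlap in 708 promoters that were higher (all tested windows 42.6%) and 6 that were lower (0.793%). In all 3 same-numbered pairs 1190 were higher (all tested windows 65.9%) and 14 lower (all tested windows 1.9%). With the replicate block 957 were higher and 1 lower (54.8% higher, as over all tested windows, of which 0.164% were lower). Without the filter on low levels 31 of 9993 promoters were higher and 1 lower (0.310% higher; all windows 0.128% and 0.00944%), and with the input subtracted 869 of 1747 were higher and 1 lower (49.7% higher; all tested windows 45.1% and 0.309%). Centring each library on its median left 80 higher and 49 lower (all tested windows 8.3% and 5.27%), or 150 and 140 with the block (13.4% and 11.6%). The counts moved with single libraries, always with 0 lower. Without SW480 ERβ replicate 1, 731 of 1716 were higher (all tested windows 4746 of 10342). Without ERβ replicates 2 and 3 the counts were 102 of 1637 and 119 of 1664 (all tested windows 1111 of 9598 and 1225 of 9618). Without mock replicates 1, 2 and 3 they were 128 of 1760, 199 of 1749 and 236 of 1756 (all tested windows 1518 of 10692, 1814 of 10649 and 2316 of 10519).

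The 5 largest gains were CXCR6, IFNAR2, SGPP2, EML2 and STAT5A, at log2 differences of 1.83 to 2.25. The mean of CXCR6 was 0.415 in HT29 mock, 0.258 in HT29 ERβ and 0.609 in SW480 mock, so it passed the filter only through SW480 ERβ. CXCR6, a chemokine receptor gene whose match lies in an intron at -711 bp from the nearest TSS, read 0.400, 0.720 and 0.707 in SW480 mock and 7.13, 8.27 and 4.82 in SW480 ERβ (2.25 ± 0.24, adjusted p 4.03e-09), and at most 0.495 in any HT29 library. It was occupied in SW480 ERβ alone: gtcaacatctGGGGAATTCCaggagtacag at chr3:45942749-45942758. IFNAR2, a subunit of the type I interferon receptor, read 0.790, 0.890 and 1.03 in mock and 4.14, 8.01 and 7.17 in ERβ (1.93 ± 0.38, adjusted p 0.000208), and 13.0, 6.23 and 7.01 in HT29 mock. SGPP2, a sphingosine phosphatase gene, read 0.800, 1.11 and 1.87 in mock and 6.02, 7.48 and 8.15 in ERβ (1.88 ± 0.35, adjusted p 0.000110), and 6.91, 4.97 and 5.82 in HT29 mock. IFNAR2, SGPP2, EML2 and STAT5A were thus high in both HT29 conditions and in SW480 ERβ, and low in SW480 mock, where they fell against HT29 mock by 2.29, 1.63, 1.67 and 1.51 on the log2 scale. These comparisons share the SW480 mock libraries. Without the filter on low levels, CXCR6 and SGPP2 kept their calls against SW480 mock, and those of IFNAR2 (limma adjusted p 0.110), EML2 (0.0597) and STAT5A (0.239) were lost, as was that of STAT5A between the mock lines (0.106).

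Of 13 tested subunit, inhibitor and ubiquitin-feedback genes, 0 passed the threshold in SW480 without the block and 5 with it, where 54.8% of all tested windows were higher. Without it their differences ran from -0.04 ± 0.34 for TNFAIP3 and 0.40 ± 0.36 for NFKBIA to 0.57 for NFKB2, 0.72 for BCL3, 0.80 for NFKBIZ and 0.92 ± 0.39 for NFKB1 (limma adjusted p 0.066), beside the median of 0.51 over the tested promoters. With the replicate block, NFKB1 (limma adjusted p 0.000241), NFKBID (0.79, adjusted p 0.00131), NFKBIZ (0.00136), BCL3 (0.00418) and NFKB2 (0.0231) passed, at standard errors of 0.215 to 0.224 over the 13 genes. Among the neutrophil chemokines 4 of the 5 tested were higher, beside 20.4% of the tested promoters, and CXCL5 lay below the filter. The level was higher for CXCL1 by 1.28 ± 0.37 (limma adjusted p 0.00900), CXCL2 by 1.27 ± 0.37, CXCL3 by 1.16 ± 0.38 and CXCL6 by 0.90 ± 0.27, and CXCL8 differed by 0.25 ± 0.38 (adjusted p 0.610). Leaving out SW480 mock replicate 1 ended the calls of CXCL1, CXCL2, CXCL3 and CXCL6 (1.09, 1.14, 0.91 and 0.75), as did leaving out SW480 ERβ replicate 3 (1.09, 1.23, 0.98 and 0.78). Without SW480 ERβ replicate 2 the calls of CXCL2 (1.14), CXCL3 (1.02) and CXCL6 (0.82) were lost, and without SW480 mock replicate 2 that of CXCL3 (1.21). Centring ended those of CXCL3 (0.61) and CXCL6 (0.36). Of the 20 strongest promoters SDC4, CREB1 and NINJ1 were higher, by 1.01, 0.99 and 1.06, and none of these 3 calls held after centring (0.46, 0.45 and 0.51) or without any 1 of SW480 mock replicates 1 and 2 and ERβ replicates 2 and 3, nor did those of CREB1 and NINJ1 without mock replicate 3. Without the filter on low levels the calls of CXCL1, CXCL2, CXCL3, CXCL6, SDC4, CREB1 and NINJ1 were all lost (adjusted p 0.259 to 0.766). TRAF2, occupied in no condition, read 0.932, 0.966 and 0.930 in mock and 4.46, 3.75 and 4.03 in ERβ (1.38 ± 0.29, adjusted p 0.000426).

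**Figure D5:**
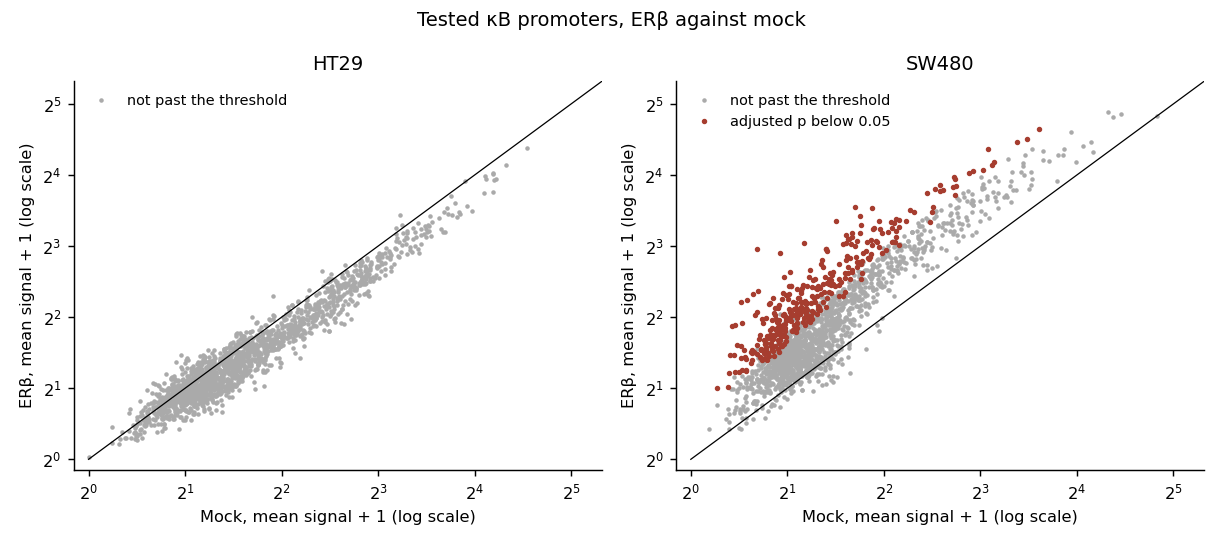
Mean signal plus 1 in ERβ (vertical) against mock (horizontal), both on log2 axes in tags per 10000000, for the 1747 tested κB promoters in HT29 (left) and SW480 (right); the line marks equality. No HT29 promoter passed the threshold, and the 356 SW480 promoters that did all lie above the line.

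The difference between the lines was tested as an interaction. The ERβ effect was more positive in SW480 than in HT29 at 145 of 1747 promoters (8.30%; all tested windows 14.6%) and less positive at 0 (all tested windows 0%), with a median of 0.69, as over all windows. A promoter that passed the filter only through SW480 ERβ could hardly be called less positive. The largest differences were those of CXCR6 (2.41 ± 0.34, adjusted p 3.25e-05), IFNAR2 (2.11 ± 0.54, adjusted p 0.00792) and SGPP2 (2.07 ± 0.50, adjusted p 0.00585). With the replicate block 908 promoters passed, all in this direction (52.0%; all tested windows 51.6%, and 0.0967% in the other). With centring 20 passed in this direction and 6 in the other (all tested windows 2.5% and 0.977%), or 98 and 47 with both (7.36% and 4.99%). Without the filter on low levels 2 of 9993 passed (all windows 0.0154%, and 0.00285% in the other direction), and with the input subtracted 730 (41.8%; all tested windows 36.4% and 0.116%), again in this direction. The count fell to between 44 and 78 (2.56% to 4.46%) without any 1 of HT29 mock replicate 1, HT29 ERβ replicates 2 and 3, SW480 mock replicates 1 and 2, and SW480 ERβ replicates 2 and 3. Over all tested windows these counts ran from 544 of 9598 to 864 of 9857. The count was 219 of 1805 without HT29 mock replicate 2 (all tested windows 1967 of 10725). It was 564 of 1716 without SW480 ERβ replicate 1 (3799 of 10342) and 600 of 1735 without HT29 ERβ replicate 1 (3796 of 10244).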

How the data were processed

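p65 ChIP-seq tracks of 12 ChIP and 4 input libraries were used. Per the labels and the study's methods, the authors mapped unique reads to hg38 with STAR and made the tracks with HOMER; tool versions are not given in the sources used here. The deposited values are signal (coverage) in tags of 100 bp scaled to 10000000 per library, with values under 0.05 absent. They are not counts and do not give the depth, so limma replaced the study's count test. The study reports a range of mapped reads per sample, which was not used here.

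Promoters came from GENCODE 44 (88858 protein-coding transcripts). Occupancy used a level of at least 2, 4-fold over input and over the surrounding 10000 bp less the central 400 bp, in at least 2 of 3 libraries. The limma (3.58.1, R 4.3.3) fit used the 12 ChIP libraries in 4 groups with a variance trend, Benjamini-Hochberg at 0.05 over 10343 windows. In a simulation of the SW480 ERβ comparison, 200 of 10343 windows were changed and the noise was independent between windows. The fit found 43% of changes of 1 on the log2 scale and 95% of changes of 2, with 9 false calls. In the data 27.7% of windows were called and whole libraries shifted, so these shares need not hold there. Reading was by Python 3.11.15, numpy 2.4.6 and pandas 2.3.3.

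Numbers shared by mock and ERβ libraries were taken to pair them, as deviations from group means correlated over 0.1 in all 6 pairs (0.112 to 0.517). The block was fitted within each line for the ERβ effects. In HT29, mock 2 also correlated with ERβ 3 (0.24) and mock 3 with ERβ 2 (0.16), beside 0.188 and 0.208 for the same numbers. The limit therefore does not settle how HT29 replicates 2 and 3 pair. Named promoters were the 20 of highest mean signal, the 5 largest changes in each direction past the threshold with non-overlapping groups (3 for the interaction), the 4 highest and all unoccupied genes of each list, and the 5 highest unoccupied. Other list genes, among them all that were occupied, and values of NFKBID were named after their values were seen. Members and lists were chosen with earlier results of these data known. Alternatives were another signal minimum, input fold, window, promoter, pseudocount, filter, scaling, input, replicate block and leaving out libraries. Results for some promoters are not reported here.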

Additional observations from a re-analysis of the deposited data

Results flagged for a closer look

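The effect of ERβ differed between the lines at 145 κB promoters by the interaction term of limma (8.30% of those tested; all tested windows 14.6%). Of these, 12 belong to the promoters named by the rule. The rule chose several of them by this term or by changes that share its libraries, so that count carries no support of its own. The difference (SW480 minus HT29, log2) was 2.41 for CXCR6, 2.11 for IFNAR2, 2.07 for SGPP2, 2.06 for STAT5A, 1.96 for LCN2, 1.87 for STAP2 and 1.79 for EML2. It was 1.56 for CXCL1, 1.55 for CXCL10, 1.5 for CD69, and 1.46 for both TRAF2 and CSF1. GADD45B and EBI3, named after their values were seen, also passed, at 1.79 and 1.34. With each library centred on its median, the calls of CXCL1, CXCL10, CD69, TRAF2, CSF1 and EBI3 were lost. Those of CXCL1, CXCL10 and CSF1 were also lost without any 1 of 7 libraries (HT29 mock replicate 1, HT29 ERβ replicates 2 and 3, SW480 mock replicates 1 and 2, SW480 ERβ replicates 2 and 3), and that of STAP2 without any 1 of these other than HT29 mock replicate 1 (1.67 to 1.77). The call of TRAF2 was lost without HT29 mock replicate 1 (1.16), that of EML2 without HT29 ERβ replicate 2 or SW480 ERβ replicate 2 or 3 (1.6 to 1.75), and that of STAT5A without HT29 ERβ replicate 3, SW480 mock replicate 1 or SW480 ERβ replicate 3 (1.74 to 1.84). Read at the match nearest to a TSS, SGPP2 fell to 1.09 and lost its call, and without the filter on low levels only CXCR6 of these 14 kept it. The call of EBI3 was also lost without any 1 of HT29 mock replicate 1, HT29 ERβ replicates 2 and 3, SW480 mock replicates 1 and 3 and SW480 ERβ replicates 2 and 3 (1.14 to 1.41). No promoter differed in the other direction without centring. CXCR6 and CD69 passed the filter only through SW480 ERβ, as their means in the other conditions lay below it.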

How the results depend on the processing

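Occupied promoters moved most under stricter limits: at 6-fold over input HT29 ERβ had 201 and SW480 mock 128, and with all 3 libraries required HT29 ERβ had 201 and SW480 ERβ 503. SW480 ERβ had the most occupied promoters and SW480 mock the fewest under each alternative run with all libraries. Leaving out 1 library and requiring both others gave 343 to 430 in HT29 mock, 201 to 276 in HT29 ERβ, 156 to 191 in SW480 mock and 512 to 815 in SW480 ERβ; the lowest came without SW480 ERβ replicate 2 (512) and replicate 3 (523). For the tests, no filter left 233 higher and 94 lower between mock lines. It left 32 promoters in SW480 ERβ against mock, 2 in the interaction and 1 in HT29. A filter at 2 left 233 of 711 in SW480 (all tested windows 1369 of 3479). Between mock lines it left 180 of 711 (all tested windows 369 higher and 1050 lower of 3479). Centring gave 129 in SW480, 599 between lines and 26 in the interaction. Input subtraction gave 870 in SW480 and 730 in the interaction. The replicate block gave 958 in SW480 and 908 in the interaction, 0 in HT29, and changed no other count by over 1.5 times. Chosen after seeing the data, the block with centring gave 620 between lines. Leaving out the HT29 replicate 1 pair, also chosen then, gave 688 of 1669 in SW480 (all tested windows 4371 higher and 12 lower of 9680). In the interaction it gave 313 of 1669 (all tested windows 2246 higher and 2 lower of 9680). Without 1 library the counts ran from 0 to 0 in HT29, 102 to 731 in SW480, 217 to 409 between lines and 44 to 600 in the interaction. Of 1535 values of named promoters under alternatives, 1330 kept direction and call, 205 lost the call and none turned. The 3 libraries a condition and tracks without counts limit the precision.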
